A study of Cucumis melo with 24 samples.

Results

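The 6 genes described here were MELO3C018579.2, MELO3C008183.2, MELO3C034352.2, MELO3C034353.2, MELO3C033110.2 and MELO3C027975.2, all annotated in the deposited table as cysteine proteinase inhibitors. They were picked by identifier, with their levels in these libraries already known, from 29980 melon (Cucumis melo) genes. Another 28 rows of the table carried a cysteine proteinase inhibitor description, which makes a family of 34. Because the levels chose the 6 genes, their genotype differences are given below as descriptions. The number of the 6 called by the fit over all genes is printed once beside the share of all genes called, and nothing is read from it.

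Plant cysteine proteinase inhibitors, called phytocystatins, are small proteins that sit in the active site of papain-type cysteine proteases and block them. They are known to control protein turnover in seeds and senescing organs, and in many plants they are induced by wounding, insects and jasmonate. In cucurbits, inhibitors of this kind have been found in phloem sap, together with the lectins and filament proteins of sieve elements.

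RNA came from fruit flesh of wild-type melon (WT) and of the cmnac-nor mutant. Fruits were taken 15, 25, 35 and 45 days after pollination (DAP, also written as day 15 and so on), and each of the 8 groups had 3 libraries. CmNAC-NOR encodes a NAC-domain transcription factor, and the NOR gene of tomato is known for its part in fruit ripening. The labels do not say what the mutation is, whether it rests on 1 line, or whether the libraries of a group were separate fruits or plants, so p-values may measure technical spread. Levels were in TPM (transcript counts scaled by gene length and library total), a unit read from the values, and depth is unknown. Differences are mutant minus WT on log2(TPM + 1), a scale on which changes of low genes look smaller than they are.

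The deposited table describes MELO3C016540.2 as a NAC domain gene, and its identity as CmNAC-NOR is general knowledge that the files do not state. In WT libraries it was listed at 575 to 1027 TPM on day 15, 1392 to 1463 on day 25, 798 to 1290 on day 35 and 430 to 511 on day 45. In mutant libraries it was listed at 24.6 to 320, 482 to 642, 1028 to 1216 and 1808 to 1920 TPM. A transcript level does not show whether the protein is altered, so it is no check of the genotype labels. Across 17658 genes at 1 TPM or more in at least 3 libraries, libraries of 1 group correlated at r = 0.91 to 0.98, lowest for mutant replicates 1 and 3 at 15 DAP and next lowest for mutant replicates 1 and 2 at 35 DAP. In WT at 35 DAP, replicate 2 correlated less with replicates 1 and 3 (0.96 and 0.95) than these did with each other (0.98). The median tested gene was higher in the mutant by 0.03, 0.44, 0.27 and 0.22 log2 units at the 4 ages. Under median-of-ratios scaling that median was 0.01, 0.08, 0.07 and 0.04. The split of calls moved with it: at 25 DAP 8588 genes were called higher and 3227 lower, against 6194 and 5414 after that scaling and 5322 and 5639 after quantile normalization. At 35 DAP the split was 7270 and 4100, against 6105 and 5452 and then 5338 and 6003. At 45 DAP it was 6793 and 3884, against 5716 and 5280 and then 4749 and 5958.

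All 6 inhibitor transcripts were present in young WT flesh and at or near 0 in WT flesh at 45 DAP, while mutant flesh held 5 of them at 978 TPM or more on average at that last age. Their summed level in WT was 10238 ± 4981 TPM (SD, n = 3) on day 15, 1086 ± 262 on day 25, 186 ± 113 on day 35 and 4.69 ± 1.12 on day 45. In the mutant the sum was 15792 ± 8224, 7274 ± 1469, 4231 ± 2602 and 10478 ± 3025 TPM. The sums overlapped between genotypes at 15 DAP. At 25, 35 and 45 DAP the lowest mutant sum was 4.79, 6.92 and 1283 times the highest WT sum. In bulk flesh, fewer cells of a type and less RNA per cell cannot be told apart.

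**Figure D1:**
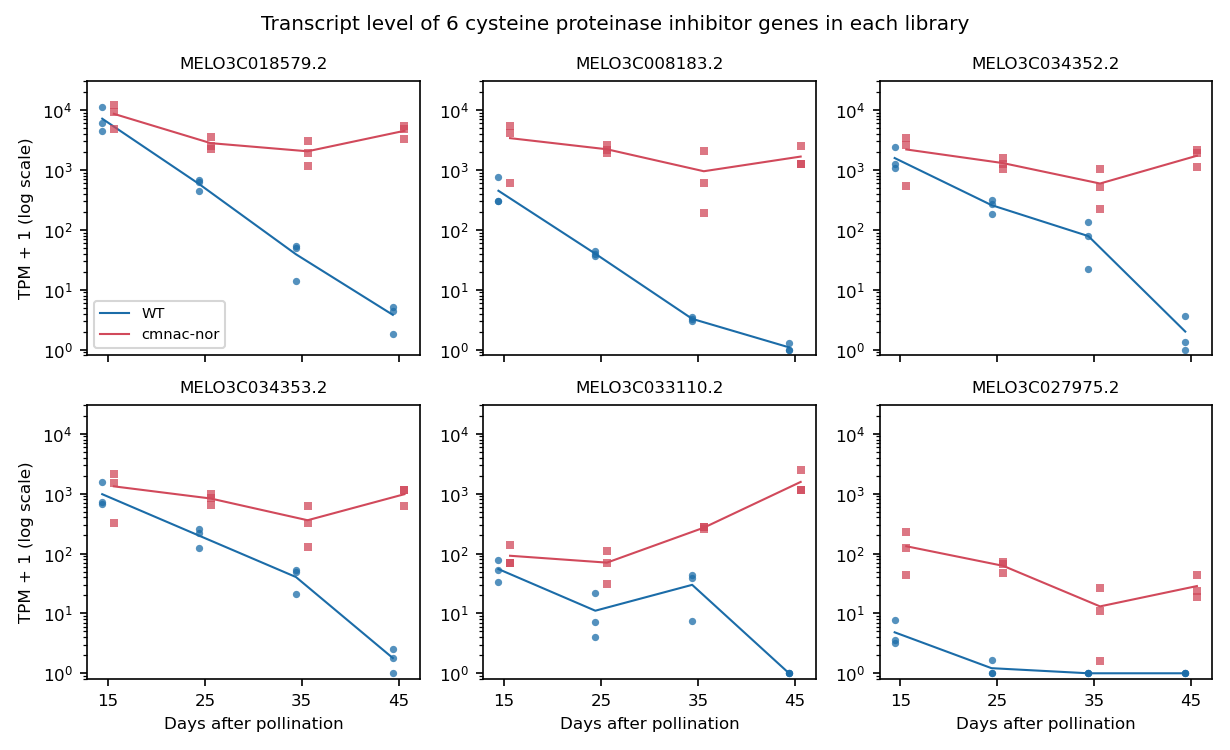
Transcript level (TPM + 1, log scale) of the 6 inhibitor genes against days after pollination; each point is 1 library, circles are WT and squares cmnac-nor, and lines join group means. WT points run down toward the value 1, which is 0 TPM, by 45 DAP, while mutant points at 45 DAP stay at 610 TPM or more for 5 genes and at 17.6 to 42.7 TPM for MELO3C027975.2.

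MELO3C018579.2 had the highest mean of the 6 in every group except WT at 35 DAP, where MELO3C034352.2 and MELO3C034353.2 stood above it. In WT its libraries read 11076, 4444 and 6001 TPM on day 15, then 674, 449 and 622 on day 25, 52.6, 13.0 and 48.5 on day 35 and 4.19, 0.85 and 3.37 on day 45. Each WT age lay below the one before with no overlap between libraries, and the mean dropped 12.3-fold, 15.3-fold and 13.6-fold over the 3 steps. In the mutant the libraries read 4863, 9139 and 11954 TPM on day 15, 2271, 2543 and 3594 on day 25, 1166, 3048 and 1930.3 on day 35, and 4887, 3251 and 5376 on day 45. The mutant mean was thus lowest at 35 DAP and 2.20 times higher at 45 DAP, where the libraries of these ages did not overlap. By mean level the gene ranked 6 of 29980 in WT at 15 DAP and 12643 in WT at 45 DAP, against 5 and 11 in the mutant. Mutant over WT, the ratio of means was 1.21 on day 15, 4.82 on day 25, 53.8 on day 35 and 1607 on day 45.

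MELO3C008183.2 had a log2 difference of 5.79 at 25 DAP and 7.56 at 35 DAP. WT libraries read 747, 300.2 and 297 TPM on day 15, 42.6, 35.3 and 38.7 on day 25, 2.53, 2.25 and 2.01 on day 35, and 0, 0 and 0.27 on day 45. Mutant libraries read 604, 5481 and 4105 TPM on day 15, 2130.4, 1912 and 2598 on day 25, 187, 2067 and 598 on day 35, and 1248, 1261 and 2508 on day 45. At 15 DAP replicates 2 and 3 of the mutant stood above every WT library, and mutant replicate 1 lay within the WT range. The log2 difference of 2.55 there ranged from 1.95 to 3.54 when 1 library was left out. From 25 DAP on the genotypes were far apart: the lowest mutant library was 44.8 times the highest WT library at 25 DAP and 73.8 times at 35 DAP. Neighbouring mutant ages overlapped throughout, so no step within the mutant exceeded its spread.

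MELO3C034352.2 and MELO3C034353.2 have consecutive identifiers and ran close to parallel. MELO3C034352.2 read 2443, 1062 and 1235 TPM in WT on day 15, 317, 184 and 272 on day 25, 134, 20.8 and 77.8 on day 35, and 0, 2.68 and 0.32 on day 45. In the mutant it read 541, 2592 and 3462 TPM on day 15, 1053, 1241 and 1604 on day 25, 223, 1026 and 528 on day 35, and 2163, 1112 and 1902 on day 45. The genotypes overlapped at 15 DAP and at no later age, with the lowest mutant library at 35 DAP 1.67 times the highest WT library. MELO3C034353.2 read 1545, 671 and 718 TPM in WT on day 15, 253, 120.3 and 220.1 on day 25, 51.2, 19.7 and 47.6 on day 35, and 1.57, 0 and 0.82 on day 45. Its mutant libraries read 324, 1516 and 2128 TPM on day 15, 636, 855 and 994 on day 25, 128, 620 and 328 on day 35, and 1163, 610.1 and 1162 on day 45. Here too the genotypes overlapped at 15 DAP alone. For both genes the mutant mean at 45 DAP was above that at 35 DAP, 2.91 times for MELO3C034352.2 without overlap and 2.73 times for MELO3C034353.2 with overlap.

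The ratio of MELO3C034352.2 to MELO3C034353.2 was 1.06 to 2.62 over the 21 libraries in which both were at 10 TPM or more. The extremes were both WT libraries at 35 DAP, replicate 2 and replicate 1, while the 12 mutant libraries lay between 1.45 and 1.86. How the authors' counting divided reads between similar family members is not given in the sources used here, so levels of single family members are uncertain where their sequences are alike. Sequences and coordinates were not used here.

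**Figure D2:**
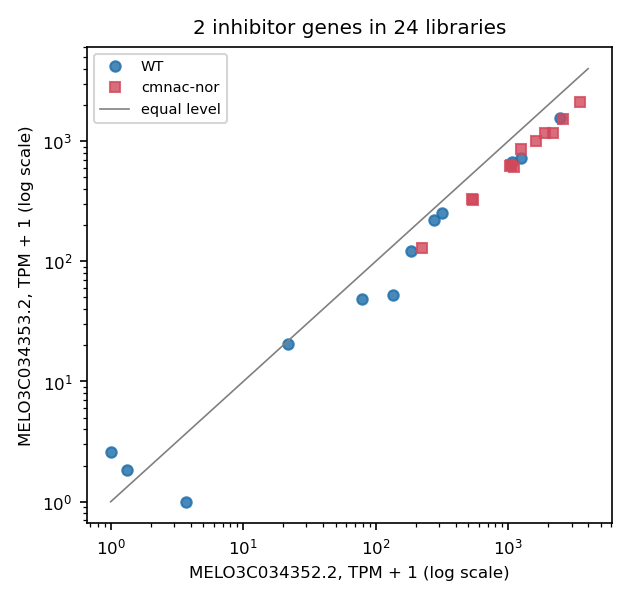
Level of MELO3C034353.2 against MELO3C034352.2 (both TPM + 1, log scales) in the 24 libraries; circles are WT, squares cmnac-nor, and the grey line marks equal levels. Outside WT at 45 DAP, where both are at 2.68 TPM or less, every point lies below the line, MELO3C034352.2 being 1.06 to 2.62 times higher.

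MELO3C033110.2 had a course of its own in the mutant. Its WT libraries read 77.5, 31.9 and 52.5 TPM on day 15, 6.29, 2.96 and 21.0 on day 25, 42.2, 6.38 and 38.4 on day 35, and were all listed at 0 on day 45. In WT the libraries at 25 and 35 DAP overlapped. Mutant libraries read 68.2, 67.5 and 137 TPM on day 15, 30.5, 68.1 and 110 on day 25, 251, 281 and 276 on day 35, and 1129, 1132 and 2444 on day 45. The mutant mean was 3.87 times higher at 35 than at 25 DAP and 5.83 times higher at 45 than at 35 DAP, without overlap at either step. Its rank in the mutant went from 1920 at 15 DAP and 2651 at 25 DAP to 549 and then 39 of 29980. It alone of the 6 had its highest mutant mean at 45 DAP; the other 5 had theirs at 15 DAP.

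MELO3C027975.2 was the member whose genotypes did not overlap at 15 DAP. Its mean was the lowest of the 6 except in the mutant at 15 DAP, where MELO3C033110.2 was lower, and in WT at 45 DAP, where both were listed at 0. WT libraries read 6.73, 2.58 and 2.19 TPM at 15 DAP and 0, 0.65 and 0 at 25 DAP, and were listed at 0 at 35 and 45 DAP. Mutant libraries read 43.2, 229 and 121 TPM on day 15, 66.4, 71.7 and 45.8 on day 25, 0.62, 25.8 and 9.85 on day 35, and 17.6, 22.6 and 42.7 on day 45. At 15 DAP the lowest mutant library was 6.42 times the highest WT library. At 35 DAP mutant replicate 1, at 0.62 TPM, was within reach of 0. The log2 difference at that age was 2.96, and it was 4.09 without mutant replicate 1 and 2.07 without mutant replicate 2.

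Counted over the 6 genes, every mutant library was above every WT library for 1 gene at 15 DAP, where this held for 15.1% of all tested genes. It held for all 6 at 25, 35 and 45 DAP, beside 54.1%, 43.1% and 44.4% of all tested genes. In the limma fit over all genes, with a Benjamini-Hochberg adjusted p under 0.05 as the threshold, 2 of the 6 were called higher at 15 DAP, where 18.3% of all tested genes were called and 10.3% were called higher. All 6 were called higher at 25 DAP (66.9% of all tested genes called, 48.6% higher), 35 DAP (64.4% and 41.2%) and 45 DAP (60.5% and 38.5%). All 6 passed the filter on low values. Since the levels at these ages chose the genes, nothing is read from these counts. The median log2 difference of the 6 was 0.51, 2.60, 3.28 and 10.12 at the 4 ages, with genes listed at 0 entering as 0 TPM.

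At 15 DAP the direction for 3 members depended on single libraries. The log2 difference of MELO3C018579.2 was 0.28, and -0.01 without WT replicate 2. That of MELO3C034352.2 was 0.20, and it was -0.04 without WT replicate 2, -0.11 without mutant replicate 2 and -0.32 without mutant replicate 3. MELO3C034353.2 was at 0.16. It was at -0.05 without WT replicate 2, -0.0044 without WT replicate 3, -0.13 without mutant replicate 2 and -0.37 without mutant replicate 3. Without mutant replicate 1 the differences were 0.65, 1.02 and 0.99 for these genes.

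Within groups the same libraries tended to be high or low for most members. WT replicate 1 on day 15 was the highest library for 6 of 6 members, mutant replicate 1 on day 15 the lowest for 5 of 6, and on day 35 mutant replicate 1 was lowest and replicate 2 highest for 6 of 6. The other 21 family genes that were tested had mutant replicate 1 at 15 DAP lowest for 13 and mutant replicate 1 at 35 DAP lowest for 14. Over the 24 libraries, Pearson's r of log2(TPM + 1) between members ranged from 0.61 for MELO3C033110.2 with MELO3C027975.2 to 0.99 for MELO3C034352.2 with MELO3C034353.2. These points share libraries and a common decline in WT, and r is given as a description. After each group's mean was taken off, r was 0.90 for MELO3C018579.2 with MELO3C034353.2 and 0.06 for MELO3C033110.2 with MELO3C027975.2.

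Among the 28 other family genes, 21 passed the filter on low values, 6 were listed at 0 in every library, and MELO3C033119.2 was above 0 in 2 libraries. At 15 DAP 2 of the 21 were higher in the mutant and none was lower by the limma test (2 lower at an unadjusted p under 0.05). At 25 DAP 12 rose and 2 fell relative to WT, at 35 DAP 15 rose and 2 fell, and at 45 DAP 16 rose and 3 fell. Genes called lower made up 7.99%, 18.3%, 23.2% and 22.0% of all tested genes at the 4 ages, and the share called higher is given above. The medians of the 21 were 0.02, 1.50, 2.22 and 3.81 log2 units.

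**Figure D3:**
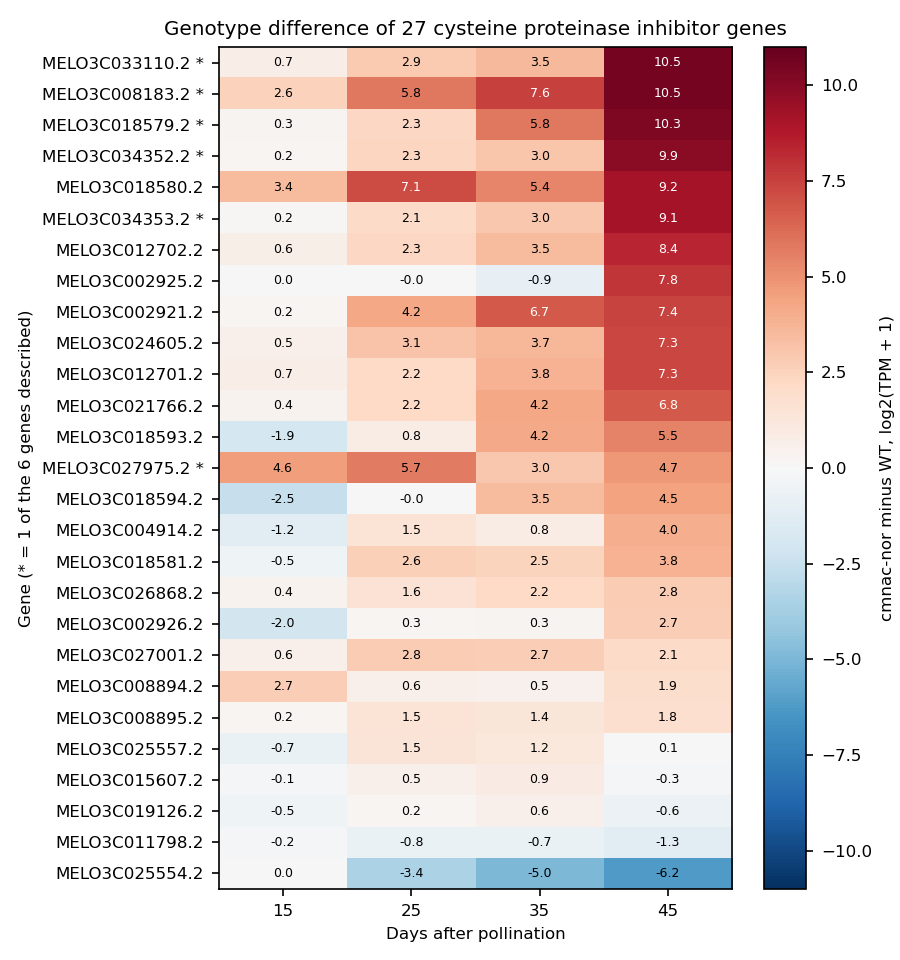
Genotype difference (cmnac-nor minus WT, log2 of TPM + 1) of the 27 inhibitor genes that passed the filter, by days after pollination; red is higher in the mutant, blue lower, and asterisks mark the 6 genes described. At 45 DAP 5 of the 6, which were chosen with these levels known, are among the 6 most positive rows. MELO3C025554.2 is the most negative at -6.2.

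MELO3C012701.2, outside the 6, had the highest mean of the family in every group except WT at 35 and 45 DAP, where MELO3C011798.2 stood at 275 and 304 TPM. WT held it at 7560 ± 2842 TPM on day 15, 1027 ± 248 on day 25, 220 ± 87.2 on day 35 and 37.7 ± 3.40 on day 45 (SD, n = 3). In the mutant it stood at 12710 ± 4399, 4778 ± 1016, 3114 ± 1298 and 6270 ± 1167 TPM. It was not called at 15 DAP, and it rose in the mutant at 25 DAP (log2 difference 2.23, SE 0.36, limma adjusted p = 2.64e-05), 35 DAP (3.82, adjusted p = 3.00e-08) and 45 DAP (7.33, adjusted p = 5.51e-12). MELO3C012702.2, with the next identifier, did likewise and reached 8.36 at 45 DAP (adjusted p = 2.41e-12), from 5.71 ± 2.03 TPM in WT to 2161 ± 389 in the mutant. MELO3C021766.2 (6.79) and MELO3C024605.2 (7.34) also rose at 45 DAP, and both were called at 25 and 35 DAP.

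MELO3C018580.2, whose identifier follows that of MELO3C018579.2, was 1 of the 2 called at 15 DAP. Its level at that age was 380 ± 180 TPM in WT, against 4372 ± 2770 in mutant flesh (log2 difference 3.45, SE 0.63, limma adjusted p = 0.00084). At 25 DAP it stood at 2.65 ± 3.02 and 403 ± 65.4 TPM (7.13, adjusted p = 1.26e-08). The second call at 15 DAP was MELO3C008894.2 (2.67, adjusted p = 0.00147), which ended when the 15 DAP libraries were fitted alone (adjusted p = 0.143, with 0.000661 to 0.143 over the alternatives). MELO3C002925.2 was unlike these in timing. It was not called at 15, 25 or 35 DAP and then rose at 45 DAP, from WT libraries at 0.28, 0.27 and 0 TPM to mutant libraries at 316, 186 and 335 (7.85, SE 0.45, adjusted p = 3.90e-11).

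A few family genes went the other way at some ages, or had calls that depended on single libraries. MELO3C025554.2 was listed at 0 in all mutant libraries and in WT at 15 DAP, and WT held 11.6 ± 8.56, 33.9 ± 20.9 and 110 ± 81.9 TPM at 25, 35 and 45 DAP (limma adjusted p = 6.41e-05, 8.63e-07 and 5.40e-08). MELO3C011798.2 fell in the mutant at 25 DAP (-0.77, adjusted p = 2.86e-07), 35 DAP (-0.72, 6.74e-07) and 45 DAP (-1.27, SE 0.09, 3.97e-10), from 304 ± 25.5 to 126 ± 15.2 TPM at the last age. MELO3C019126.2 was called higher in the mutant at 35 DAP (0.60, adjusted p = 0.0257), where the libraries overlapped. It fell at 45 DAP (-0.60, adjusted p = 0.0263), a call that ended without WT replicate 3 or mutant replicate 1 or 3 (0.002 to 0.0999 over the alternatives). MELO3C002926.2, called higher at 45 DAP (2.75, adjusted p = 0.0406), read 0, 1.89 and 133 TPM in the mutant, and the call ended without mutant replicate 3 and in 6 other alternatives (0.00216 to 0.394 over all of them).

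The genotype difference at 45 DAP was larger than that at 15 DAP for 14 of the 21 other family genes and smaller for 2 by the limma test of that difference, which called 46.3% of all tested genes, 28.8% in the first direction and 17.5% in the second. For MELO3C012702.2 it was larger by 7.73 log2 units and for MELO3C002925.2 by 7.83. The same quantity for the members, given without a test, had a median of 9.35, with a range from 0.15 for MELO3C027975.2 to 10.03.

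The share of the family's summed TPM held by the members, which were chosen with these levels known, differed by age. In WT it was 32.2 to 37.8% of the sum on day 15, 26.3 to 31.1% on day 25, 5.75 to 18.7% on day 35 and 0.37 to 0.578% on day 45. In the mutant it was 26.1 to 38.7%, 37.4 to 39.4%, 28.2 to 38.8% and 42.5 to 47.8%. The WT family at 45 DAP was led by MELO3C011798.2 and MELO3C015607.2 at 304 and 167 TPM, and the mutant family by MELO3C012701.2 and MELO3C018579.2 at 6270 and 4505 TPM. The whole family summed to 28417 ± 11875, 3696 ± 654, 1292 ± 216 and 929.7 ± 92.8 TPM in WT and 46657 ± 19087, 18810.3 ± 3397, 12176 ± 5696 and 22915 ± 5366 TPM in the mutant.

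The targets of these inhibitors, papain-type cysteine proteases, varied less in sum than the family did. Their 25 genes, of which 12 passed the filter, summed to 3832 ± 315, 5775 ± 188, 5652 ± 7.50 and 4664 ± 593 TPM in WT and 2627 ± 482, 2869 ± 446, 3540 ± 125 and 6676 ± 568 TPM in the mutant. Every mutant sum was below every WT sum at 15, 25 and 35 DAP and above it at 45 DAP. Single genes weighed heavily in these sums, so they do not show a shift of the whole class. MELO3C010982.2 averaged 2983 TPM in WT and 366 TPM in the mutant at 35 DAP. MELO3C026898.2 averaged 1590 TPM in WT and 3931 TPM in the mutant at 45 DAP. The ratio of the family sum to the protease sum was 5.10 to 10.3 in WT at 15 DAP and 0.167 to 0.253 in WT at 45 DAP. In the mutant it was 11.4 to 22.7 on day 15, 5.48 to 7.25 on day 25, 1.998 to 4.95 on day 35 and 2.87 to 3.93 on day 45, above every WT library of the same age. These are transcript ratios and carry no protein or activity measurement.

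**Figure D4:**
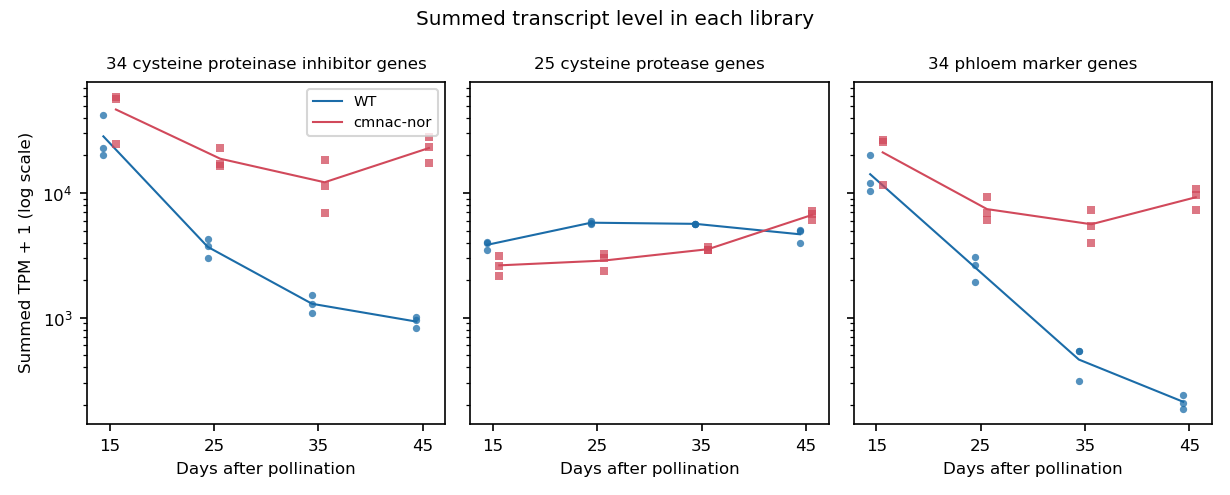
Summed TPM + 1 (log scale) per library of the 34 cysteine proteinase inhibitor genes, 25 papain-type cysteine protease genes and 34 phloem marker genes; circles are WT, squares cmnac-nor, and lines join group means. The inhibitor and phloem panels separate the genotypes from 25 DAP on. The protease sums stay between 2167 and 7154 TPM in all libraries. Without overlap, they are lower in the mutant at 15, 25 and 35 DAP and higher at 45 DAP.

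By the limma test, of the 12 proteases none rose and 1 fell in the mutant on day 15, 2 rose and 5 fell on day 25, 4 rose and 3 fell on day 35, and 5 rose and 4 fell on day 45. At an unadjusted p under 0.05, 2 rose and 1 fell at 15 DAP. Their medians were -0.29, -0.07, 0.22 and 0.14. Beside these counts, 10.3%, 48.6%, 41.2% and 38.5% of all tested genes were called higher at the 4 ages and 7.99%, 18.3%, 23.2% and 22.0% lower. The RD19a-like protease MELO3C010982.2, of a class known from drought-treated Arabidopsis, stood at 1870.4 ± 68.4 TPM in WT against 418 ± 140 in mutant flesh at 25 DAP (log2 difference -2.22, SE 0.31, adjusted p = 5.44e-06). It also fell at 35 DAP (-3.06, adjusted p = 8.91e-08) and 45 DAP (-1.72, adjusted p = 0.00011). The cathepsin B-like MELO3C026898.2, a vacuolar-type protease class, was lower in the mutant at 15 DAP (-1.08, adjusted p = 0.000854) and higher at 45 DAP, with 1590.5 ± 249 TPM in WT against 3931 ± 624 in mutant flesh (1.30, SE 0.20, adjusted p = 1.30e-05). Its call at 15 DAP ended when those libraries were fitted alone (adjusted p = 0.109, 9.25e-05 to 0.109 over the alternatives). Its lower call at 25 DAP (-1.01, adjusted p = 0.000178) ended under quantile normalization (adjusted p = 0.0565, 7.38e-06 to 0.0565 over the alternatives).

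Other proteases rose in the mutant at 1 or more ages. MELO3C017053.2, a cysteine proteinase, was at 19.8 ± 5.19 TPM in WT at 15 DAP and listed at 0 in all WT libraries from 25 DAP on. In the mutant it stood at 6.95 ± 4.73, 7.79 ± 3.20 and 61.6 ± 21.6 TPM at 25, 35 and 45 DAP (limma adjusted p = 4.78e-05, 1.66e-05 and 4.19e-09). MELO3C015701.2 rose at 25 DAP (3.37, adjusted p = 7.46e-06) and 35 DAP (2.41, adjusted p = 0.000289). At 45 DAP both genotypes were low, at 0.253 ± 0.186 and 0.287 ± 0.338 TPM. MELO3C016781.2 rose at 35 DAP (1.53, adjusted p = 1.03e-05) and 45 DAP (0.85, adjusted p = 0.0038), with WT means of 68.3 ± 35.5 and 175 ± 19.7 TPM at these ages. The RD19a-like MELO3C023338.2 rose at 45 DAP (1.20, adjusted p = 5.66e-05), and its call at 35 DAP (0.66, adjusted p = 0.00908) ended under median-of-ratios scaling, in the fit to that age alone and without WT replicate 1 or 3 (9.22e-08 to 0.154 over the alternatives). Its WT means were 320 ± 166 and 543 ± 21.5 TPM at 35 and 45 DAP, so neither gene declined towards 0 in WT as the inhibitors did.

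**Figure D5:**
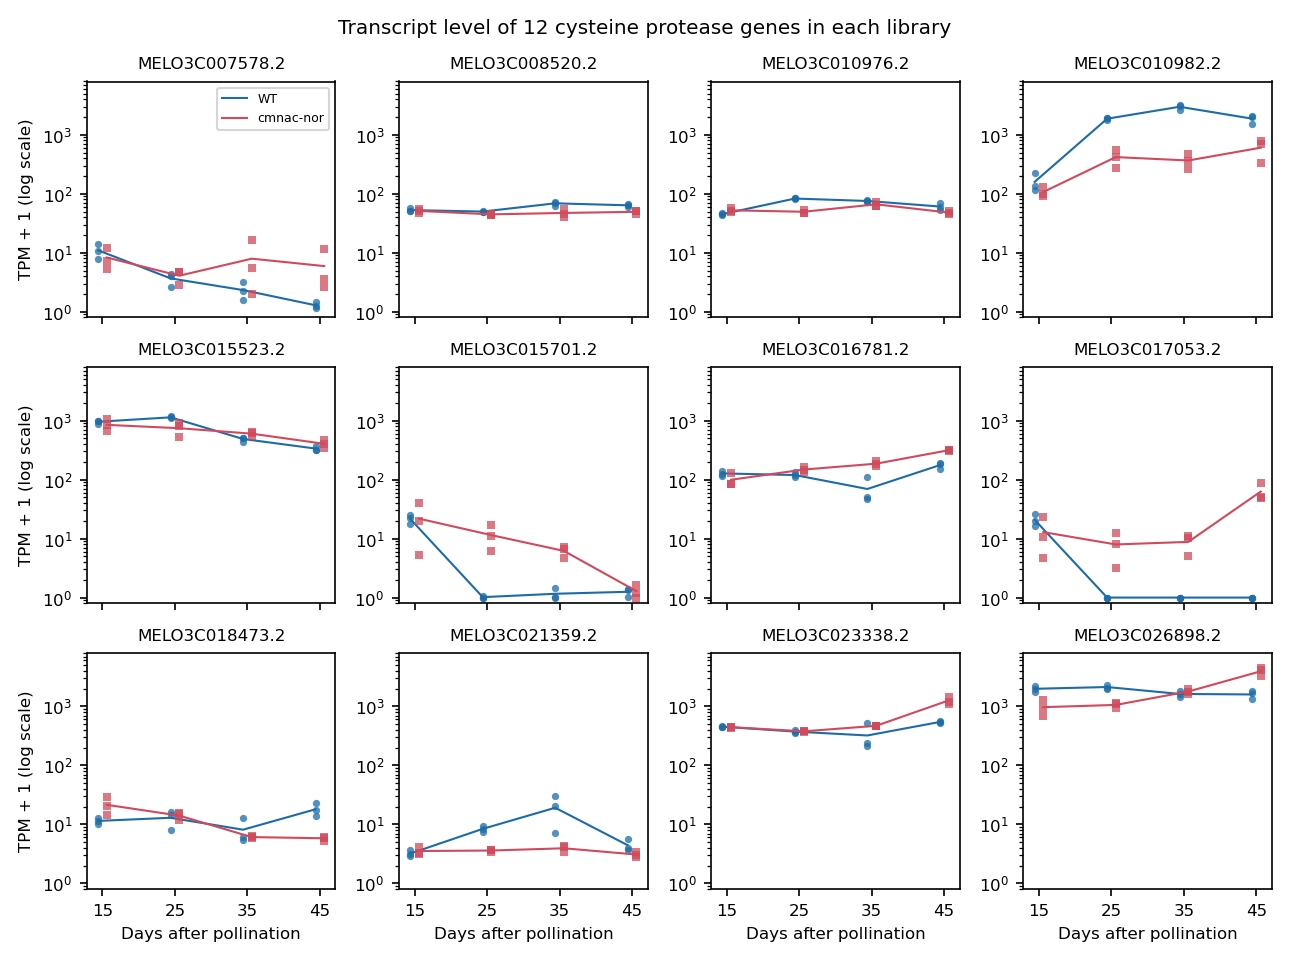
Transcript level (TPM + 1, log scale) of the 12 papain-type cysteine protease genes that passed the filter, against days after pollination; each point is 1 library, circles are WT, squares cmnac-nor, and lines join group means. MELO3C010982.2 is lower in the mutant from 25 DAP on, MELO3C017053.2 is at 0 TPM in WT from 25 DAP on, and MELO3C026898.2 crosses from lower to higher in the mutant.

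Of the 8 legumain-type and metacaspase genes, cysteine proteases of other clans, none rose and 1 fell on day 15, 5 rose and 3 fell on day 25, and 5 rose and 2 fell on days 35 and 45 by the limma test. At an unadjusted p under 0.05, 1 rose at 15 DAP. The shares of all tested genes were 10.3%, 48.6%, 41.2% and 38.5% higher and 7.99%, 18.3%, 23.2% and 22.0% lower at the 4 ages. Legumains, the vacuolar-processing enzymes, are a known target of some large phytocystatins. The vacuolar-processing enzyme MELO3C005564.2 fell at 25 DAP, from 1905 ± 229 to 86.9 ± 6.68 TPM (-4.43, SE 0.41, limma adjusted p = 2.53e-08), and at 35 DAP (-2.01, 0.000305) and 45 DAP (-2.25, 0.00011). Metacaspase-9 (MELO3C019168.2) rose at 45 DAP from 2.76 ± 1.14 to 236 ± 91.0 TPM (5.96, adjusted p = 4.44e-09).

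Protease inhibitors not described as cysteine proteinase inhibitors were called in both directions. Among the 19 tested of 33 listed, none rose and 3 fell on day 15, 6 rose and 2 fell on day 25, 5 rose and 7 fell on day 35, and 5 rose and 6 fell on day 45 by the limma test. At an unadjusted p under 0.05, 0 rose at 15 DAP. Among all tested genes, 10.3%, 48.6%, 41.2% and 38.5% were called higher at the 4 ages and 7.99%, 18.3%, 23.2% and 22.0% lower. A Kunitz trypsin inhibitor (MELO3C002175.2) fell at 35 DAP, from 3081 ± 1315 to 42.9 ± 4.92 TPM (-6.04, limma adjusted p = 3.97e-10), and at 45 DAP (-5.44, 1.98e-09). A serpin-ZX-like gene (MELO3C016723.2) rose at 25 DAP (2.36), 35 DAP (3.67) and 45 DAP (3.43, adjusted p = 4.40e-08), from 16.2 ± 2.88 to 188 ± 58.7 TPM at the last age.

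Jasmonate genes, which belong to a pathway known to induce cystatins in other plants, were mixed. Of 41 tested among 74 listed, 4 rose and 5 fell on day 15, 26 rose and 10 fell on day 25, 24 rose and 10 fell on day 35, and 13 rose and 10 fell on day 45. Over all tested genes, 10.3%, 48.6%, 41.2% and 38.5% were called higher at the 4 ages. The shares called lower were 7.99%, 18.3%, 23.2% and 22.0%. The jasmonate receptor gene Coronatine-insensitive 1 (MELO3C025152.2) fell at all 4 ages, by -0.77, -1.62, -1.74 and -0.87 log2 units (limma adjusted p = 0.00034, 2.60e-09, 9.12e-10 and 9.11e-06). Allene oxide synthase (MELO3C018413.2), an enzyme of jasmonate synthesis, fell at 25 DAP from 3691 ± 220 to 460.4 ± 102 TPM (-3.02, adjusted p = 1.72e-06). Its means at 15, 35 and 45 DAP were 1086, 3092 and 1510 TPM in WT against 203, 410 and 513 TPM in the mutant. A 12-oxophytodienoate reductase-like gene (MELO3C008075.2), an enzyme that works later in that synthesis, rose at 45 DAP from 0.893 ± 0.271 to 192 ± 63.9 TPM (6.63, adjusted p = 3.56e-10). Its means at 15, 25 and 35 DAP were 86.4, 0.83 and 1.13 TPM in WT against 102, 172 and 95.4 TPM in the mutant.

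Phloem markers were also higher in the mutant in sum from 25 DAP on, and single markers differed in course. The marker list was matched on description words and also held F-box genes, such as MELO3C006145.2 and MELO3C014055.2, described as F-box protein PP2-A13. Of 29 tested among 34 listed, 2 rose and 3 fell on day 15, 21 rose and 1 fell on day 25, 22 rose and 2 fell on day 35, and 16 rose and 0 fell on day 45 by the limma test. At an unadjusted p under 0.05 the number that fell on day 45 was also 0. Their summed level ranged over 10306 to 19967 TPM in WT on day 15, 1949 to 3077 on day 25, 309 to 537 on day 35 and 186 to 240 on day 45. In the mutant it ranged over 11603 to 26358, 6048 to 9264, 4006 to 7356 and 7334 to 10749 TPM. Markers with a mean under 1 TPM numbered 6 of 34 in both genotypes at 15 DAP, and 24 in WT against 12 in the mutant at 45 DAP. The 26 kDa phloem lectin MELO3C002874.2 alone averaged 5957 TPM of the mutant mean sum of 9233 TPM on day 45. Among markers chosen after their values were seen, the sieve element occlusion genes MELO3C026765.2 and MELO3C026768.2 averaged 70.3 and 27.2 TPM in the mutant on day 15. Their mutant means were 35.8 and 21.2 TPM on day 25, 31.7 and 17.9 on day 35 and 0.91 and 0.15 on day 45. Mutant replicate 1 on day 35 read 0.50 and 0 TPM. In WT these 2 genes averaged 78.7 and 43.1 TPM on day 15, 0.01 and 0.02 on day 25, and 0 on days 35 and 45. The 17 kDa phloem lectin MELO3C027040.2 averaged 10.97 TPM in WT and 1.26 TPM in the mutant on day 35. Mutant replicate 1 was the lowest library of its group in this sum at 15 and 35 DAP, as it was for the members. Their part in the members' pattern was not tested.

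Seed markers, 98 genes, summed to 7108 to 8310.1 TPM in WT and 6537 to 8919 in the mutant at 15 DAP, to 1130.3 to 1595 and 4745 to 5884 TPM at 25 DAP, to 1088 to 1663 and 3399 to 4513 TPM at 35 DAP, and to 1561 to 1790 and 4630.3 to 6967 TPM at 45 DAP. Of the 59 tested, 4 rose and 4 fell on day 15, 28 rose and 9 fell on day 25, 17 rose and 17 fell on day 35, and 19 rose and 15 fell on day 45. Their median log2 difference was -0.04, 0.83, 0.0047 and 0.09 at the 4 ages. Rind and cuticle markers, 30 genes, summed to 51.3 to 180 TPM over all libraries, with the WT libraries at 35 DAP at 57.1, 156 and 51.3. The ripening-flesh list, 182 genes, was matched on description words such as polygalacturonase, beta-galactosidase and expansin, not on a shown part in ripening. In each group 132 to 148 of the 182 genes averaged under 1 TPM. The list summed to 12563 to 24597 TPM in WT from 25 DAP on and to 715 to 2572 TPM in the mutant at those ages. By count more of the listed genes rose than fell from 25 DAP on. Of 59 tested, 32 rose and 15 fell on day 25, 30 rose and 18 fell on day 35, and 29 rose and 15 fell on day 45. Their median log2 differences at these ages were 1.08, 1.01 and 0.61. Over all tested genes, 48.6%, 41.2% and 38.5% were called higher at these ages. The shares called lower were 18.3%, 23.2% and 22.0%, and this split moved with the scaling. On day 15, 6 of the 59 rose and 12 fell, beside 10.3% and 7.99% of all tested genes. The part of these markers in the members' pattern was not tested either.

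The genes most like each member were taken as the 5 outside the 6 with the highest Pearson's r of log2(TPM + 1) over the 24 libraries. For MELO3C018579.2 these were the inhibitors MELO3C012701.2 (r = 0.99), MELO3C021766.2 (0.99) and MELO3C012702.2 (0.99), the 26 kDa phloem lectin MELO3C002874.2 (0.99) and a flavin-containing monooxygenase, MELO3C013512.2 (0.99). The phloem lectin, an abundant sugar-binding protein of cucurbit sieve elements, averaged 9042 ± 3278, 1845 ± 472, 197 ± 76.4 and 73.5 ± 27.1 TPM in WT and 15387 ± 6655, 5031 ± 1188, 4011 ± 1349 and 5957 ± 1733 TPM in the mutant. At 45 DAP WT libraries thus still held the lectin at 42.2 to 89.2 TPM, where MELO3C018579.2 was at 0.85 to 4.19 TPM.

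For MELO3C034352.2 and MELO3C034353.2, inhibitor genes of the family took 4 and 3 of the 5 places, led by MELO3C012702.2 (r = 0.98 for both). The other places went to an MLP-like protein 28 gene, MELO3C014991.2 (0.97 for both), and, for MELO3C034353.2, to the phloem lectin MELO3C021760.2 (0.97). MELO3C008183.2 had no inhibitor among its 5, which were led by a WAT1-related gene, MELO3C005803.2 (0.97), and a branched-chain-amino-acid aminotransferase-like gene, MELO3C004297.2 (0.97). MELO3C033110.2 was closest to the trichome birefringence genes MELO3C019762.2 (0.95) and MELO3C000298.2 (0.93). The first of these averaged 0.337 TPM in WT and 53.7 TPM in the mutant at 45 DAP. MELO3C027975.2 was closest to inositol-3-phosphate synthase, MELO3C017581.2 (0.92), an enzyme of inositol synthesis, and to the inhibitor MELO3C018580.2 (0.91). These likenesses are descriptions over libraries that share ages and genotypes.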

How the data were processed

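The authors deposited 1 table of 24 libraries whose values are in TPM; the unit was taken from the values, which sum to 927200 to 963200 per library. Per the submitters' processing notes, TopHat2, HISAT2, StringTie and Cufflinks were used; their roles and versions, the genome build and the depth are not given in those notes or in the labels. Per the labels' protocols, total RNA was extracted with Trizol and sequenced from TruSeq libraries.

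Genes at 1 TPM or more in at least 3 libraries (17658 of 29980) were fitted on log2(TPM + 1) with limma 3.58.1 in R 4.3.3 (moderated, with a mean-variance trend), with 8 group means and 1 shared spread, two-sided, adjusted by the Benjamini-Hochberg method over all genes tested. A gene was called at an adjusted p under 0.05. Tests covered the genotype at each age and its change from 15 to 45 DAP, and were checked on simulated data. Alternatives were a pseudocount of 0.1, no filter, median-of-ratios scaling, quantile normalization, fits to the groups compared, library weights, a replicate block and leaving out each library.

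The 6 genes and the gene lists, built from words in the descriptions, were chosen with earlier results of these data known. Other genes were named by a rule: all family genes, the 5 nearest to each member by r, and, by smallest adjusted p at a mean of 10 TPM or more, up to 6 proteases and 3 genes of each other list per comparison. MELO3C016540.2 and some phloem markers were named outside this rule, the markers after their values were seen. Not all genes picked by the rule are described, among them the trypsin inhibitor MELO3C018009.2. Of the 6 identifiers, 0 matched the RefSeq gene table, and no annotation beyond the deposited descriptions was used.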

Additional observations from a re-analysis of the deposited data

Results flagged for a closer look

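The genotype difference, mutant minus WT, differed between 45 and 15 DAP for 36 named genes outside the 6, by the limma test of that difference (Benjamini-Hochberg adjusted p under 0.05 over 17658 genes). The values given here are log2 differences at 45 DAP minus those at 15 DAP, and positive values mean that the mutant was higher relative to WT at the later age.

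Among other cysteine proteinase inhibitor genes the positive values were MELO3C002921.2 (7.23), MELO3C002925.2 (7.83), MELO3C002926.2 (4.78), MELO3C004914.2 (5.17), MELO3C008895.2 (1.64), MELO3C012701.2 (6.58), MELO3C012702.2 (7.73), MELO3C018580.2 (5.72), MELO3C018581.2 (4.32), MELO3C018593.2 (7.40), MELO3C018594.2 (7.01), MELO3C021766.2 (6.36), MELO3C024605.2 (6.80), MELO3C026868.2 (2.36). The negative values in that family were MELO3C011798.2 (-1.11), MELO3C025554.2 (-6.23).

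Among papain-type cysteine proteases the values were MELO3C010976.2 (-0.54), MELO3C010982.2 (-1.19), MELO3C016781.2 (1.23), MELO3C017053.2 (6.87), MELO3C018473.2 (-2.46), MELO3C023338.2 (1.23), MELO3C026898.2 (2.38). Among metacaspases they were MELO3C006275.2 (-0.80), MELO3C017623.2 (3.76), MELO3C018636.2 (5.65), MELO3C019168.2 (6.69). Among protease inhibitors not described as cysteine proteinase inhibitors they were MELO3C002175.2 (-5.13), MELO3C016723.2 (3.61), MELO3C018349.2 (5.09), MELO3C031670.2 (-6.62). Among jasmonate genes they were MELO3C003675.2 (2.75), MELO3C008075.2 (6.37), MELO3C011217.2 (2.37), MELO3C014637.2 (-5.32), MELO3C018412.2 (2.995). Where 1 of the 2 groups at an age was listed at 0, as for MELO3C025554.2 in the mutant and MELO3C017053.2 in WT at 45 DAP, the value depends on the pseudocount and is no bound. The call for the RD19a-like MELO3C010982.2 ended in 9 alternatives (adjusted p 0.0112 to 0.113), and that for MELO3C008895.2 in 8 (0.00953 to 0.184).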

How the results depend on the processing

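The number of genes called at 15 DAP, 3232, moved most. It was 695 when the libraries of that age were fitted alone (293 higher and 402 lower), 1434 with library weights per group (709 and 725), and 2089 to 3556 when 1 library was left out, lowest without mutant replicate 2. The fit to 1 age has fewer samples for the spread. At 25, 35 and 45 DAP such fits called 12383, 10601 and 11126 genes, against 11815, 11370 and 10677 in the main fit. The cause of the drop at 15 DAP was not tested in any of these settings. The papain-type protease count at 15 DAP, 1, was 2 under median-of-ratios scaling and under quantile normalization, 0 in the fit to that age alone, and 1 to 2 with 1 library left out. Counts of genes, proteases and other family genes at 25, 35 and 45 DAP, and of other family genes at 15 DAP, stayed within 1.5 times under all alternatives run. The share of calls that were higher also moved for the change of the difference from 15 to 45 DAP, with 5085 higher and 3090 lower against 4369 and 4226 under median-of-ratios scaling and 3633 and 5007 under quantile normalization. The protease MELO3C023338.2 at 25 DAP changed sign, from 0.02 to -0.44 under median-of-ratios scaling (adjusted p = 0.0434), a setting that lowers the median gene at that age from 0.44 to 0.08.

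For the 6 members, 304 values stayed within 1 SD of the main value and 8 moved by more; 7 of these were with a pseudocount of 0.1 where WT libraries were at or near 0, up to 13.84 for MELO3C033110.2 at 45 DAP. Among other named genes, 2496 values kept their direction and side of the threshold, 29 gained a call, 74 lost one and 1 changed sign.

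Libraries with the same number do not pair: the deviations of same-numbered WT and mutant libraries correlated at r = -0.31 to 0.06. With a replicate block, 3072, 11719, 11240.0 and 10540.0 genes were called at the 4 ages, and 7981 for the change of the difference.

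Depth is unknown, so values at or near 0 TPM carry no counting error here, and differences against them depend on the pseudocount.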
